A study of Mus musculus with 8 samples.

Results

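The epicardium is the mesothelial sheet that covers the myocardium. During development some of its cells leave the surface, enter the ventricular wall and form fibroblasts and the mural cells of coronary vessels, while the sheet itself makes retinoic acid and supplies signals to the growing compact wall. The 10 epicardial genes Wt1, Tbx18, Tcf21, Aldh1a2, Upk3b, Upk1b, Krt19, Msln, Muc16 and Gpm6a were followed here in RNA-seq of mouse heart ventricles at embryonic day 15.5. They were chosen by symbol and made up 10 of the 53465 genes in the table of counts. All 10 were among the 15388 genes that passed the filter on low counts.

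Of the 8 libraries, 4 were wild type (WT) and 4 carried the genotype label Nrg-1flox;Cdh5-CreERT2, and the latter are called libraries labelled Flox. Per the series title, this line deletes Nrg1, the gene of the secreted growth factor neuregulin-1, with a tamoxifen-inducible Cre recombinase. The Cdh5 promoter drives expression in endothelial cells, which include the endocardium, so Cre was not directed at the epicardium itself. The day and dose of tamoxifen, and whether the WT embryos received it or carried any of the alleles, are not given in the sources used here. Per the design text each replicate was a single ventricle, and nothing in the labels says whether replicates came from separate embryos or litters. The p-values therefore measure the spread between these libraries only.

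Libraries held 16761763 to 24144272 expected counts, and library 4 labelled Flox was the smallest. Levels are given as CPM, that is, counts scaled to a common library size. Nrg1, the targeted gene, had 5.46, 4.64, 4.08 and 5.32 CPM in WT (libraries 1 to 4, in this order throughout) and 6.83, 6.33, 6.16 and 5.36 CPM where labelled Flox. Its log2 difference was 0.34 (SE 0.12, edgeR FDR 0.311). It was thus not lower where the label states a deletion, and every direction given here is that of the labels. The exons flanked by loxP sites are not given in the sources used here, so a level over the whole gene is no check of the deletion itself. Counts of Xist and counts of Y-linked genes both exceeded 20 in 7 of the 8 libraries, and the summed Y-linked level was 119 ± 41.7 CPM in WT and 72.4 ± 33.4 CPM in libraries labelled Flox (SD, n = 4). Xist is made in cells with more than a single X chromosome, so these values go against a library from a single embryo's ventricle. Ventricular cardiomyocyte genes summed to between 41660 and 46560 CPM in each library. The 6 genes of lung epithelium, a tissue whose surface also bears mesothelium, summed to at most 0.420 CPM, and Nkx2-1, Sftpc and Cldn18 were at 0 in every library.

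Each of the genes was detected in every library, from 81 expected counts for Muc16 to 1336 for Tbx18. Detection in RNA from whole ventricles does not show that the transcripts came from the epicardium. Several are not exclusive to the surface layer. Tcf21 is also transcribed in fibroblast precursors inside the wall, Tbx18 in mural cells, and Wt1 in part of the coronary endothelium. In RNA from whole ventricles, fewer epicardial cells and less RNA per cell cannot be told apart.

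The upstream sequences of the genes with the smallest p, Upk3b and Tbx18, are shown because only these differed between the groups at an unadjusted p below 0.05 (see their values further on). RefSeq promoters (GRCm38.p6) were found for 6 of the 10 genes: Tbx18, Tcf21, Aldh1a2, Upk3b, Muc16 and Gpm6a. The 250 bases before the start are printed 5′ to 3′ in the direction of transcription. Capitals mark matches, on either strand, to GGAATG (the core bound by TEAD factors), AGGTCA (a nuclear receptor half-site), GTGGGNG (a core resembling that of WT1), GGTGTGA (the T-box core) and AGATAA (the core of sites for GATA factors). No capitals of different motifs overlap in these sequences.
Upk3b, chr5:136038246-136038495, plus strand: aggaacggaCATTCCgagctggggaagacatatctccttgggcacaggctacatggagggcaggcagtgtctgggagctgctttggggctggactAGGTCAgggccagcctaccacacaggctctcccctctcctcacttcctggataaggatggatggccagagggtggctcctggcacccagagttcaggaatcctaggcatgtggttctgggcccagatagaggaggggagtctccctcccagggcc
Tbx18, chr9:87731261-87731510, minus strand: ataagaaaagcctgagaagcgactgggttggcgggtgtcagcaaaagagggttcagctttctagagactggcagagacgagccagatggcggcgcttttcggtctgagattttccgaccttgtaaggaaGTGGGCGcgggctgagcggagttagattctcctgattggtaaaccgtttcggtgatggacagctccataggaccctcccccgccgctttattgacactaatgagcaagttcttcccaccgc
The TEAD core occurred upstream of 2 of the 6 genes (Upk3b and Gpm6a), against 12.6% of all 27025 promoters. The half-site occurred in 1 (Upk3b, against 13.8% of all), the WT1 core in 1 (Tbx18, against 27.8%), the GATA core in 1 (Tcf21, against 10.3%) and the T-box core in 0 (against 3.31%). The E-box CANNTG, the class of site bound by basic helix-loop-helix factors such as TCF21, occurred in 5 of the 6 and in 66.0% of all promoters, and it is not capitalized. Upstream GC content ranged from 44.4% for Gpm6a to 77.6% for Aldh1a2, where 40 CpG dinucleotides lay in the 250 bases against 0 for Muc16. The RefSeq start of Gpm6a lies 175409 bases upstream of the gene start in GENCODE M21, while those of the other 5 lie within 73 bases. Gpm6a had 2 RefSeq promoters and only the first listed was searched. Its matches, including the TEAD core, may thus not belong to the promoter of the transcripts counted here. These matches describe letters and not occupied sites.

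Transcription factors of the epicardium were compared first. Tbx18, a T-box repressor of the proepicardium and its derivatives (ENSMUSG00000032419, chromosome 9, 87702800 to 87731260), stood at 49.0, 47.1, 52.2 and 50.9 CPM in WT. In libraries labelled Flox it stood at 49.3, 56.0, 53.6 and 57.2 CPM. Libraries 2, 3 and 4 labelled Flox exceeded every WT library, while library 1 lay within the WT range. This gave a log2 fold change of 0.12 (SE 0.0485), with a 95% confidence interval of 0.01 to 0.22 and an unadjusted p of 0.0320 in edgeR's quasi-likelihood test. After Benjamini-Hochberg adjustment over all tested genes (the false discovery rate, FDR) it was 0.416, so the difference did not pass 0.05. The expected counts of Tbx18 were not whole in any library. Tbx18 shares 970 exonic bases with D030062O11Rik on the opposite strand, which reached at most 1.35 CPM, and with both genes summed the log2 fold change was 0.12 (edgeR FDR 0.406).

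Wt1, a zinc-finger factor required for epicardial cells to enter the wall (ENSMUSG00000016458, chromosome 2, 105126529 to 105173616), was at 19.0, 19.5, 23.1 and 21.04 CPM in WT libraries. It was at 21.6, 24.04, 20.1 and 24.8 CPM in libraries labelled Flox. The groups overlapped, with library 3 labelled Flox below 2 WT libraries. On the log2 scale the difference was 0.13 (SE 0.0783, edgeR FDR 0.613), with a 95% confidence interval of -0.04 to 0.30. Tcf21, a basic helix-loop-helix factor needed for cardiac fibroblasts (ENSMUSG00000045680, chromosome 10, 22817281 to 22820174), was at 28.0, 26.4, 26.3 and 31.0 CPM in WT libraries and at 29.7, 30.1, 23.9 and 33.9 CPM in libraries labelled Flox. Both the highest and the lowest of the 8 values were thus in libraries labelled Flox. Its log2 difference was 0.07 (SE 0.0883, edgeR FDR 0.859), with a 95% confidence interval of -0.12 to 0.26.

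Aldh1a2, the enzyme that makes retinoic acid in the epicardium (ENSMUSG00000013584, chromosome 9, 71215789 to 71296243), was at 18.0, 18.4, 18.8 and 18.0 CPM in WT libraries. It was at 17.5, 19.0, 17.2 and 19.7 CPM in libraries labelled Flox. The WT values lay inside the range of the other group. Means were 18.3 ± 0.402 and 18.4 ± 1.19 CPM (SD, n = 4), and the log2 fold change was 0.0029 (SE 0.0588, edgeR FDR 0.993). Its 95% confidence interval ran from 0.918-fold to 1.09-fold. The counting error alone, for counts of this size, is 5.04% of the level, so the WT spread of 2.197% was below it.

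The remaining members encode surface and cytoskeletal proteins of mesothelia. Upk3b, a uroplakin (ENSMUSG00000042985, chromosome 5, 136038496 to 136046487), was at 28.2, 31.5, 30.4 and 29.9 CPM in WT libraries and at 33.4, 34.1, 32.4 and 33.3 CPM in libraries labelled Flox. Every library labelled Flox exceeded every WT library, and Upk3b was the only member whose groups did not overlap, as held for 6.05% of all tested genes. Means were 30.02 ± 1.38 and 33.3 ± 0.696 CPM (SD, n = 4). This was a log2 difference of 0.15 (SE 0.0438), or 1.11-fold, with a 95% confidence interval of 0.05 to 0.24. Its unadjusted p of 0.00494 became an FDR of 0.197 in edgeR, and the difference did not pass.

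Upk1b, a tetraspanin that pairs with uroplakins in urothelium (ENSMUSG00000049436, chromosome 16, 38773184 to 38800328), was at 7.12, 6.58, 7.34 and 7.51 CPM in WT libraries and at 7.94, 8.22, 7.18 and 8.59 CPM in libraries labelled Flox. Library 3 labelled Flox lay within the WT range and the other 3 above it. The log2 fold change of 0.16 was the highest of the members, with an SE of 0.0898 and an edgeR FDR of 0.585. Msln, the gene of the glycoprotein mesothelin (ENSMUSG00000063011, chromosome 17, 25748613 to 25754378), was at 18.8, 23.5, 21.6 and 23.2 CPM in WT libraries and at 21.4, 22.9, 23.3 and 24.1 CPM in libraries labelled Flox. The groups overlapped, and WT library 1 was the lowest of the 8. Muc16, a very long membrane mucin that binds mesothelin (ENSMUSG00000109564, chromosome 9, 18495455 to 18674530), was at 4.44, 4.68, 5.26 and 5.93 CPM in WT libraries and at 5.36, 4.07, 5.74 and 4.77 CPM in libraries labelled Flox. Muc16 was the member with the widest spread (13.1% and 14.6% of the mean) and the only one with a log2 fold change below 0. The log2 fold changes were 0.07 (SE 0.0703, edgeR FDR 0.796) for Msln and -0.03 (SE 0.135, edgeR FDR 0.971) for Muc16.

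Krt19, an intermediate filament keratin of simple epithelia (ENSMUSG00000020911, chromosome 11, 100140810 to 100148665), was at 21.8, 22.6, 18.9 and 22.0 CPM in WT libraries and at 19.7, 21.6, 21.3 and 25.6 CPM in libraries labelled Flox. Gpm6a, a neuronal membrane glycoprotein also found on mesothelium (ENSMUSG00000031517, chromosome 8, 54954843 to 55060871), was at 16.7, 18.1, 15.2 and 17.3 CPM in WT libraries and at 16.3, 18.4, 16.4 and 19.8 CPM in libraries labelled Flox. In both genes WT library 3 was the lowest and library 4 labelled Flox the highest. Log2 fold changes were 0.04 (SE 0.0795, edgeR FDR 0.911) for Krt19 and 0.08 (SE 0.0775, edgeR FDR 0.808) for Gpm6a.

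**Figure D1:**
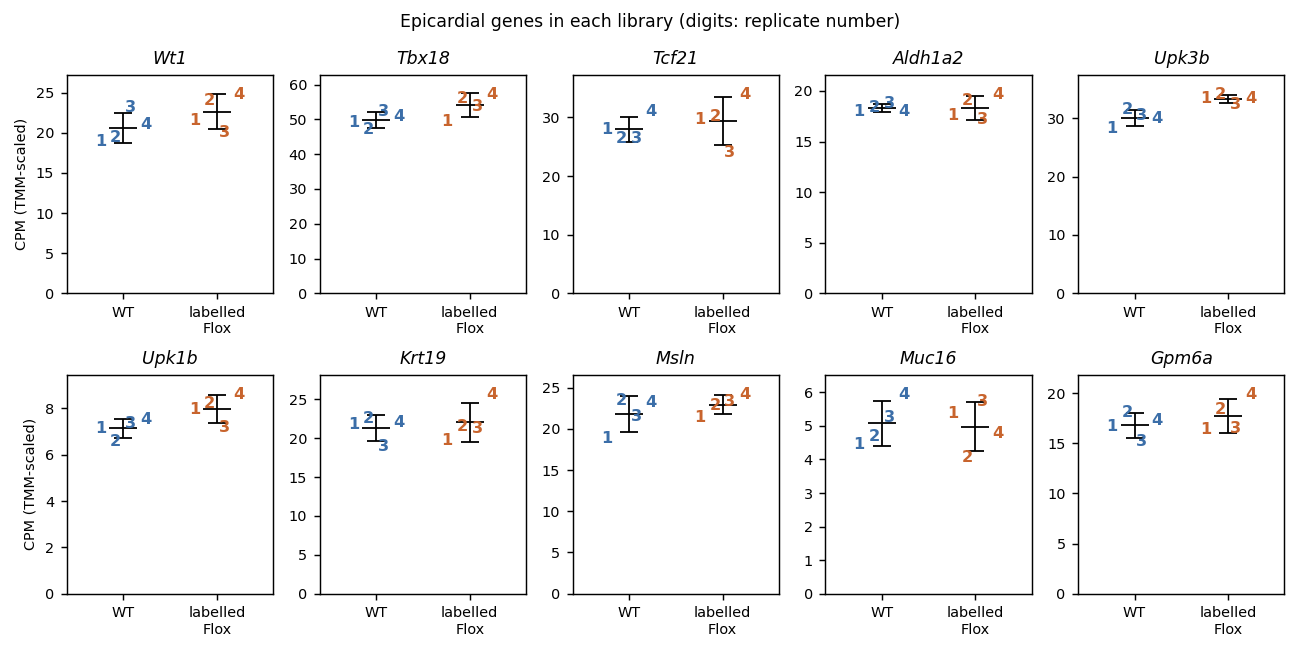
Level of each epicardial gene in CPM (y axis, from 0) in the WT libraries (blue digits) and the libraries labelled Flox (orange digits), where digits are replicate numbers and black bars are means ± SD (n = 4). Only for Upk3b do all 4 libraries labelled Flox lie above all 4 WT libraries.

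Counted together, 0 of the 10 epicardial genes differed at FDR below 0.05 in edgeR's test, where 0.526% of all tested genes did. At an unadjusted p below 0.05 there were 2 (Upk3b and Tbx18) against 10.5% of all tested genes, and DESeq2 and limma voom likewise gave 0 members at FDR below 0.05 and 2 at an unadjusted p below 0.05. The log2 fold change was above 0 for 9 of the 10, as for 49.4% of all tested genes, but members share libraries and are not independent of each other. The median log2 fold change was 0.07, and that of all tested genes was -0.0012. The 95% confidence intervals bounded the changes to between 0.799-fold (the lower bound for Muc16) and 1.28-fold (the upper bound for Upk1b). Standard errors ran from 0.0438 for Upk3b to 0.135 for Muc16, the member with the fewest counts.

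**Figure D2:**
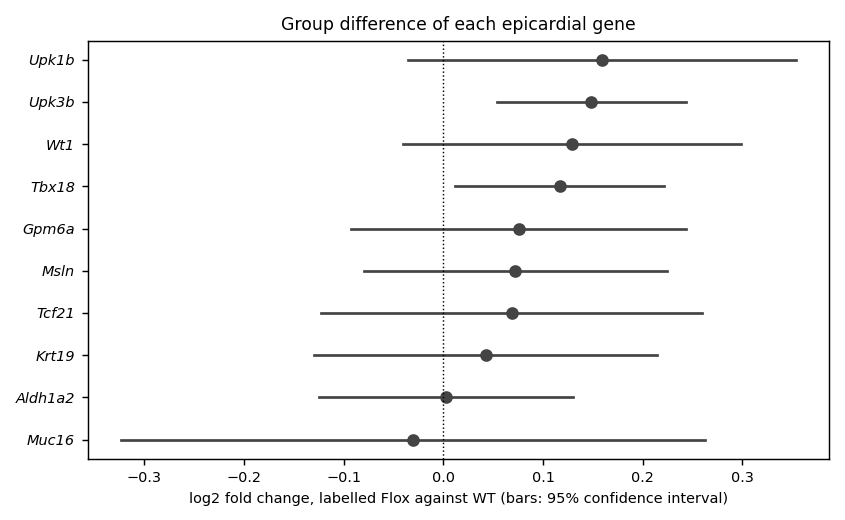
Log2 fold change of each epicardial gene, libraries labelled Flox against WT (x axis), with 95% confidence intervals from the edgeR fit (bars). The intervals of Upk3b and Tbx18 exclude 0, the other 8 include it, and none of the 10 passed FDR 0.05.

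The members' levels were also compared library by library. Library 4 labelled Flox had the highest level of 8 of the 10 genes, the exceptions being Upk3b (highest in library 2 labelled Flox) and Muc16 (highest in WT library 4). Over all tested genes that library was the highest in 15.6%, and the lowest in 15.9%. It also stood apart in lists of other cell types, being the highest for 6 of 7 macrophage genes, 5 of 6 erythroid genes and 4 of 10 fibroblast genes, and the lowest for 5 of 10 ventricular cardiomyocyte genes. Among 12 tested genes of the list of other mesothelial and epicardial genes it was the highest for 3. The part of this library's makeup in the members' values was not tested. WT library 1 was the lowest for 3 members and above the 8-library mean for 1, Krt19. Library 3 labelled Flox was the lowest for 2 members, Tcf21 and Aldh1a2, and library 2 labelled Flox was above the mean for 8. The mean of the 10 standardised log2 levels ranged from -0.84 in WT library 1 to 1.26 in library 4 labelled Flox, in SDs of each gene across libraries.

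Summed over the members, the level was 211, 218, 219 and 227 CPM in WT libraries 1 to 4 and 222, 238, 221 and 252 CPM in libraries 1 to 4 labelled Flox. The groups overlapped, since WT library 4 exceeded libraries 1 and 3 labelled Flox. The means were 219 ± 6.44 and 233 ± 14.6 CPM (SD, n = 4), so the difference of 14.5 CPM was about the SD of the group labelled Flox. Without library 4 labelled Flox, the median log2 fold change of the members was 0.04, and 6 of the 10 were above 0. Upk3b then stood at 0.15 (edgeR FDR 0.223, unadjusted p of 0.0106). Without library 3 labelled Flox the median was 0.12, and 5 members (Wt1, Tbx18, Tcf21, Upk3b and Upk1b) had an unadjusted p below 0.05, with 0 at FDR below 0.05. This was the largest such count of the fits that each lacked 1 library, and the others gave 1 to 3. The shares over all tested genes in these fits were not taken, so these counts have no background and describe the members' values only. Without WT library 4 the median was likewise 0.12. Fitted with the log2 of the Y-linked sum as a further term, the median was 0.11. That sum was itself lower on average in libraries labelled Flox (means of 119 CPM in WT and 72.4 CPM), so this term is entangled with the group. The median thus lay between 0.04 and 0.12 in these fits. What part depth has in the median was not tested. The fit with the Y-linked term cannot tell the part of sex-linked transcripts apart from that of the group. Xist, at means of 120 CPM in WT and 244 CPM in libraries labelled Flox, was not fitted.

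**Figure D3:**
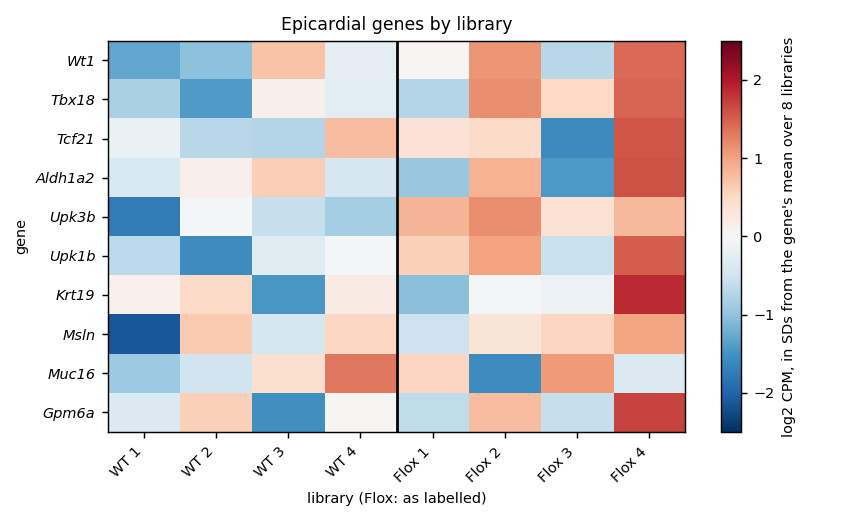
Log2 CPM of the 10 epicardial genes (rows) in the 8 libraries (columns, WT left of the line), in SDs from each gene's mean over the 8 libraries (colour). Library 4 labelled Flox is the highest for 8 of the 10 genes and WT library 1 the lowest for 3.

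Per length, levels could be set against each other. In CPM per kilobase of exonic sequence, Tcf21 was the highest in WT libraries at 11.9 ± 0.932, followed by Krt19 at 11.5 ± 0.876 and Tbx18 at 10.6 ± 0.477 (SD, n = 4), and the ranges of neighbours in this order overlapped. Upk3b (8.50 ± 0.391) and Aldh1a2 (8.08 ± 0.178) came next, overlapped each other and lay below Tbx18 in every WT library. Msln (7.10 ± 0.708), Gpm6a (5.23 ± 0.385) and Upk1b (3.42 ± 0.194) followed in steps without overlap. Wt1 (3.33 ± 0.302) could not be separated from Upk1b. Muc16 was lowest, at 0.193 ± 0.0252 per kilobase of a 26350-base exonic length (SD, n = 4). The order was identical in libraries labelled Flox. Exonic length is the union of all annotated exons, so genes with several isoforms are set somewhat low on this scale.

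Other mesothelial and epicardial genes gave 0 calls. Of 16 such genes, 12 were tested, 3 had a log2 fold change above 0 and 9 below, the median was -0.04, and 0 passed FDR 0.05, with 1 at an unadjusted p below 0.05. Over all tested genes, 49.4% had a log2 fold change above 0 and 10.5% had an unadjusted p below 0.05. Genes of a list share libraries and are not independent of each other, here and in the lists below. The listed gene at an unadjusted p below 0.05 was Podxl, a sialomucin of mesothelium, podocytes and endothelium. Its mean was 97.9 ± 4.92 CPM in WT and 87.0 ± 1.86 CPM in libraries labelled Flox (SD, n = 4). The log2 difference was -0.17 (SE 0.0372, edgeR FDR 0.0693), and the groups did not overlap. Itga4, the integrin subunit that attaches epicardium to myocardium (-0.18, edgeR FDR 0.562), and the keratin gene Krt14 (-0.72, edgeR FDR 0.614) followed. Krt14 had group means under 1 CPM and was at 1.501 CPM in WT library 2 alone, against 0.351 to 0.587 CPM in the other 7 libraries. The 12 log2 fold changes ran from -0.72 to 0.12.

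The retinoic acid pathway around Aldh1a2 gave no call. Of 17 genes 15 were tested, 0 passed edgeR's FDR of 0.05 and 0 had an unadjusted p below 0.05, with 4 above 0, 11 below and a median log2 fold change of -0.07. Of all tested genes, 49.4% were above 0 and 10.5% had an unadjusted p below 0.05. The smallest p values were those of the binding proteins Crabp2 (-0.62, edgeR FDR 0.546) and Crabp1 (-0.46, edgeR FDR 0.55) and of the synthesizing enzyme Aldh1a1 (0.27, edgeR FDR 0.63), all with group means under 4 CPM.

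Genes of the epicardial transition into the wall also gave 0 calls among 13 tested of 14 (3 above 0, 10 below, median -0.05, and 3 at an unadjusted p below 0.05). Those 3 were Pdgfrb, the receptor of mural precursors (-0.15, edgeR FDR 0.254), the cadherin gene Cdh2 (0.08, edgeR FDR 0.357) and the co-receptor gene Nrp1 (0.09, edgeR FDR 0.399). The shares over all tested genes were 10.5% at such a p, 49.4% above 0 and 0.526% past FDR 0.05. Among 16 genes for signals between epicardium, coronary vessels and myocardium, 15 were tested and 1 passed, which was lower (median -0.03). It was Cxcr4, the receptor of the chemokine that Cxcl12 encodes, with means of 12.0 ± 0.596 CPM in WT and 9.25 ± 0.494 CPM in libraries labelled Flox (SD, n = 4). The log2 difference was -0.38 (SE 0.0741, edgeR FDR 0.0454). Over 16 alternatives the log2 fold change stayed between -0.40 and -0.34, and the call was kept in 5. It was lost on leaving out any library but library 4 labelled Flox (FDR 0.0914 to 0.132), and with all libraries under total-count scaling (0.0529), limma voom (0.0502), the replicate block (0.0767) and the Y-linked covariate (0.264). Next by p in this list were Fgf2 (-0.19, edgeR FDR 0.507) and Fgf16 (0.50 on group means under 1 CPM, edgeR FDR 0.568).

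Epicardium-derived cell types were read from their own lists. Among 10 fibroblast genes the median log2 fold change was -0.05, 8 were below 0 and 0 were called, though Postn (-0.18, edgeR FDR 0.225) and Dpt (-0.24, edgeR FDR 0.455) had an unadjusted p below 0.05, and Ogn was at 0.15 (edgeR FDR 0.545). The 10 mural genes had a median of -0.10, with 8 below 0, 0 called and 5 at an unadjusted p below 0.05. Over all tested genes, 10.5% had such a p and 49.4% were above 0. Kcnj8, a pericyte channel subunit, was at 19.1 ± 0.720 and 16.1 ± 0.622 CPM (SD, n = 4; -0.24, edgeR FDR 0.0867), Acta2 was at 0.12 (edgeR FDR 0.184) and Rgs5 at -0.26 (edgeR FDR 0.282).

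Among lists of other cell types, the 10 endothelial genes had a median of -0.05 and 0 calls, with 5 genes at an unadjusted p below 0.05. The smallest by p were Esam (-0.15, edgeR FDR 0.0584), Kdr (-0.17, edgeR FDR 0.0693) and Tie1 (-0.17, edgeR FDR 0.121). Another of the 5, Emcn, was higher and had the highest log2 fold change of the list (0.18, edgeR FDR 0.358). All 7 atrial genes were below 0, with a median of -0.20, 0 calls and 2 genes at an unadjusted p below 0.05. For each list of this paragraph, the shares over all tested genes are 10.5% at such a p, 49.4% above 0 and 0.526% called. The smallest p values were those of Dkk3 (-0.24), Stard10 (-0.28) and Myl7 (-0.13). The 7 atrial genes summed to 1653 to 1867 CPM in WT and 1644 to 1790 CPM in libraries labelled Flox. Most of this sum was Myl4, at means of 1323 CPM in WT and 1311 CPM in libraries labelled Flox. Its log2 fold change of -0.01 (edgeR FDR 0.957) was the highest of the list, so the sum says little about the other atrial genes. Of 10 ventricular cardiomyocyte genes, 2 had an unadjusted p below 0.05. In this list Nkx2-5 passed FDR 0.05 and was higher (0.21, SE 0.0334, edgeR FDR 0.0194), while Hey2 (0.09, edgeR FDR 0.356) and Ryr2 (0.12, edgeR FDR 0.642) did not pass. The call of Nkx2-5 was kept in 12 of 16 alternatives, with an FDR of up to 0.0897. The 7 macrophage genes (median 0.03, led by Csf1r, Mrc1 and Cx3cr1 by p) and the 6 erythroid genes (median 0.10, led by Hba-a2, Hbb-bt and Hbb-bs) gave 0 calls and 0 genes at an unadjusted p below 0.05. Erythroid genes summed to 4265 to 9371 CPM in WT and 5843 to 9967 CPM in libraries labelled Flox. Hepatocyte genes summed to at most 2.01 CPM, and neither they nor the lung genes reached the test. The part of any of these cell types in the members' values was not tested.

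**Figure D4:**
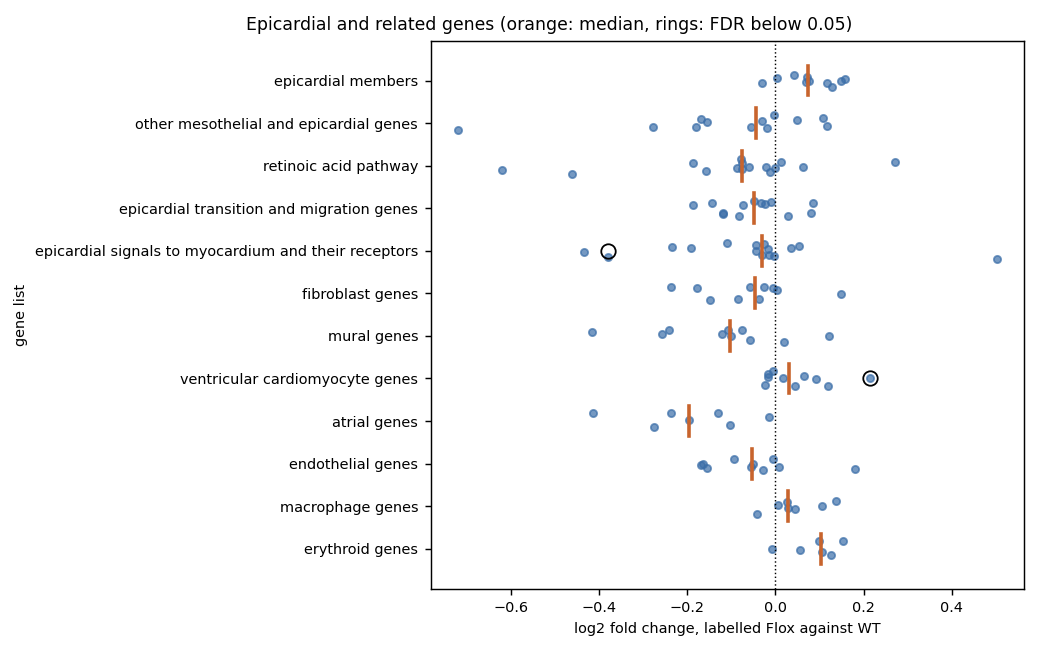
Log2 fold change of each tested gene, libraries labelled Flox against WT (x axis), in the epicardial genes and in the related lists (rows), with medians in orange and genes at FDR below 0.05 ringed. The median of the epicardial genes is 0.07, medians of the other epicardial, retinoic acid, fibroblast and mural lists lie between -0.10 and -0.04, and the ringed genes are Cxcr4 and Nkx2-5.

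Genes whose levels followed the members most closely were sought across the 8 libraries. The measure was the root-mean-square difference between a gene's standardised log2 CPM and the standardised mean of the members, over 12847 other genes with a mean log2 CPM of at least 1. The closest were Pappa2 (0.318), Top1 (0.334), Ints2 (0.343), 9930111J21Rik2 (0.357), Arf4 (0.366), Ndel1 (0.369), Mto1 (0.375), Maf (0.377), Srrd (0.381) and C2cd2l (0.389). All 10 were highest in library 4 labelled Flox, and none passed FDR 0.05 in edgeR's test. Members, measured against the mean of the other 9, lay from 0.635 for Wt1 to 1.51 for Muc16. These distances cannot be set against those of the named genes, which were picked as the closest of 12847 and measured against the mean of all 10 members. In addition, 0.5 CPM was added before taking logs except in the means of the other 9. Of the other mesothelial and epicardial genes, the closest was in place 401 (Lrrn4, 0.725) and the farthest in place 12532 (Podxl, 1.74). None of the 10 closest genes was in any of the lists described above, and with 8 libraries such likeness is a description only.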

How the data were processed

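Per the labels, RNA selected for poly(A) tails went into directional libraries, which were read from a single end. The authors deposited expected counts per Ensembl gene. Per the submitters' processing notes these came from cutadapt and RSEM 1.3.1 on GRCm38. Neither the aligner nor the strand setting is given in the sources used here. Expected counts divide reads that match several genes, and 18.1% of values were not whole.

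Counts were rounded, filtered (filterByExpr by group, 15388 of 53465 genes) and normalized by TMM. The group term was tested with edgeR 4.0.16 (glmQLFTest, two-sided) in R 4.3.3, p-values were adjusted by the Benjamini-Hochberg method across the tested genes, and 0.05 was the threshold. Standard errors were derived from the F statistic. Symbols, positions and exonic lengths came from GENCODE M21 on the same assembly (53360 identifiers matched). No 2 libraries were copies (their counts gave a chi-square of 2.98 or more for each degree of freedom). Fits were tested on simulated data.

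Named were Nrg1, the 10 members, per list the 3 genes with the smallest p and any called, and the 10 genes of most alike pattern. Other genes were named, after their values were seen, only in checks of the labels or as the end of a range. The members and lists were chosen with earlier results of these data known, and 1 listed gene is not reported here. Alternatives were other scalings, filters and covariates, DESeq2 1.42.0, limma 3.58.1 voom, a replicate block and leaving out each library. Figures were drawn with matplotlib 3.10.9.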

Additional observations from a re-analysis of the deposited data

Results flagged for a closer look

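Of 112 groups of 4 values examined (the members, their sum, Nrg1, the Y-linked sum and the other named genes), in 5 of them a single library lay far from the rest, where chance gives about 5.6. None of the 10 epicardial genes was among them. Dkk3 was at 81.3 CPM in library 4 labelled Flox, while its group was otherwise at 61.7 to 62.9 CPM. In the same library Maf was at 22.0 CPM, against 16.7 to 17.2 CPM, and Top1 was at 159 CPM, against 149 to 150 CPM. In WT library 1 Ints2 was at 21.2 CPM, and otherwise at 21.8 to 21.9 CPM in WT. The gene 9930111J21Rik2 reached 4.00 CPM in WT library 4 and 2.59 to 2.74 CPM in the rest of WT. Top1, Ints2, Maf and 9930111J21Rik2 had been named for a pattern like that of the epicardial genes over all 8 libraries. That pattern is highest in library 4 labelled Flox, and the flagged values of these genes, in any library, are not independent of the choice. The number given for chance takes no account of this.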

How the results depend on the processing

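For the epicardial genes, 0 of 10 passed FDR 0.05 in each alternative run, including FDR 0.1. The median log2 fold change of the members stayed above 0, from 0.04 to 0.12. Of the members' own values under the alternatives, 71 of 80 in fits without 1 library and 79 of 81 in the others kept their direction. Aldh1a2 was at -0.00047 with limma voom and Muc16 at 0.10 with the Y-linked covariate. In fits that each lacked 1 library, Tcf21 ranged from -0.0014 to 0.16, Aldh1a2 from -0.029 to 0.034, Krt19 from -0.031 to 0.093 and Muc16 from -0.11 to 0.064, so these 4 spanned 0. The standardised difference of the summed level was 1.29 SDs, and 1.02 to 1.75 SDs without 1 library.

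The count of 81 called genes over the whole table moved to 338 (154 higher, 184 lower) without a filter, to 198 (103 and 95) with DESeq2, to 16 (12 and 4) with the Y-linked covariate, to 190 at FDR 0.1 and to between 11 and 142 without 1 library. The cause was not tested. Same-numbered libraries correlated in their deviations from the group means at 0.0395 to 0.124, each above the other pairs (at most 0.0232). Not all exceeded the 0.1 required for pairing, so the main fit left them unpaired. Its p-values take no account of anything that same-numbered libraries share. What they share is not given in the labels and was not tested. The fit with the replicate block called 93 genes, which included 59 of the 81, 0 members passed, and the members' median was 0.08. Muc16, with 81 to 135 expected counts per library, is the least precise member, with an interval from 0.799-fold to 1.20-fold.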
